A study of Homo sapiens with 4 samples.

Results

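The 39 genes described here encode proteins of mitosis, the kinetochore, the spindle and cytokinesis. They were taken by symbol from the 17791 genes of the count table, and all 39 were found. The study embedded human prostate cancer cells in a poly(ethylene glycol)-fibrinogen hydrogel, alone or with fibroblasts, and sequenced RNA from the resulting engineered tissues on day 15 of culture. Each of the 4 groups was represented by 1 library, with no treatment given.

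The PC-3 monoculture held PC-3 cells only, an established androgen-independent line that the labels class as CRPC-ne. The LNCaP monoculture held LNCaP cells only, an established androgen-responsive line that the labels class as ADPC. The other 2 tissues were cocultures of 5 parts PC-3 or 5 parts LNCaP with 1 part BJ-5ta, a telomerase-immortalised line of human skin fibroblasts. The hydrogel was common to all 4 groups. The growth protocol describes PC-3 tissues kept in PC-3 medium; the medium of the LNCaP tissues and the hydrogel stiffness behind each library are not given in the sources used here. RNA came from more than 2 tissues, and the sources used here do not say whether these were pooled. With 1 library a group, each difference compares libraries, not conditions, and has no replicate check. The intervals given are 95% intervals that cover counting error only.

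In a dividing cell, cyclin-dependent kinase and its partner kinases start mitosis, kinetochores assembled on centromeric chromatin attach chromosomes to spindle microtubules, and the spindle checkpoint holds back the anaphase promoting complex until every chromosome is attached. Cytokinesis then separates the daughter cells. Most of these genes are transcribed late in the cell cycle, so their summed RNA is widely used as a readout of how many cells in a tumour are dividing. Their promoters often hold a CCAAT box, bound by NF-Y, and a cell cycle genes homology region (CHR), bound by the MuvB complex. MuvB represses as part of DREAM in resting cells and activates with B-MYB and FOXM1 in cycling cells.

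The 6 promoter stretches below are shown because they carry these elements in genes whose RNA differed in different ways between the libraries. They are RefSeq sequence on build GRCh38.p14, from 150 bases before to 30 bases after the annotated start, written 5′ to 3′ on the gene's strand. Capitals mark CCAAT boxes (CCAAT, or ATTGG on the other strand) and CHR elements (TTTGAA or TTTAAA, searched on both strands).
CCNB2: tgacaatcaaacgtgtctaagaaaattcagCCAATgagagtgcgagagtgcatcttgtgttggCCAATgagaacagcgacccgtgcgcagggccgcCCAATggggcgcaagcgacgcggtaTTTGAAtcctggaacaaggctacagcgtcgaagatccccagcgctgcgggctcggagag
PLK1: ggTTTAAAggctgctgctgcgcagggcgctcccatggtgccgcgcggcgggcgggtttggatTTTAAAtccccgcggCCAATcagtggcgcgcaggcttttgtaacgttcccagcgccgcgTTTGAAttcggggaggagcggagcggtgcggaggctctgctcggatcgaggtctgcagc
MKI67: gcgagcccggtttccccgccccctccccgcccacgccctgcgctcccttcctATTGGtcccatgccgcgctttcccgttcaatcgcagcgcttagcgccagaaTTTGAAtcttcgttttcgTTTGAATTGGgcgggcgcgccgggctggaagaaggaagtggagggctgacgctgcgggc
CDC20: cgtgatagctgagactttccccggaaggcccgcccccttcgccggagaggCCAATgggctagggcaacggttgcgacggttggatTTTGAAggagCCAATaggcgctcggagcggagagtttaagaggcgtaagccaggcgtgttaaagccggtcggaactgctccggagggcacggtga
CENPA: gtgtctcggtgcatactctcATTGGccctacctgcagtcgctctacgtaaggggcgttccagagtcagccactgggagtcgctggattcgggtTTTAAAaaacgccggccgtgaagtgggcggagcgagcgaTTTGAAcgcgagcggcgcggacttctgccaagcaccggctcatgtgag
PRC1: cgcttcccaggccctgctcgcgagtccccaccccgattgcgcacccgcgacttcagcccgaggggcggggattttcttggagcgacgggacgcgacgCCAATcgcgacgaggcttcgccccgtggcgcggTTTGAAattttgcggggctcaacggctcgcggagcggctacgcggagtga
The stretches lie at chr15:59104996-59105175 on the plus strand for CCNB2, chr16:23678739-23678918 on the plus strand for PLK1 and chr10:128126394-128126573 on the minus strand for MKI67. Those of CDC20, CENPA and PRC1 lie at chr1:43358831-43359010 on the plus strand, chr2:26785906-26786085 on the plus strand and chr15:90994506-90994685 on the minus strand. Each spans the gene's 5′ flank and the first bases of its first exon. In MKI67, the CHR nearest the start shares its last base with a CCAAT box, so the capitals run together.

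The tissue labels were checked against defining genes. Summed counts per 1000000 (CPM, scaled by TMM) of 20 fibroblast markers were 456 in the PC-3 monoculture and 1140 in its coculture, and 37.4 and 1280 in the LNCaP pair. Of these markers, 6, 0, 8 and 1 were at 0 counts in that order, and COL1A2, a fibrillar collagen chain, had 1, 2026, 0 and 3577 counts. KLK3, the LNCaP-expressed prostate antigen, had 0 counts in both PC-3 libraries and 60226 and 74134 in the LNCaP pair. KRT19, a keratin of PC-3 cells, had 170 counts in the LNCaP monoculture and 108 in its coculture, against 22213 in the PC-3 monoculture. The 5 PC-3 markers together summed to 1762, 1723, 11.4 and 95.5 CPM in PC-3 alone, PC-3 coculture, LNCaP alone and LNCaP coculture. In the LNCaP coculture against LNCaP alone, KRT19 was the 1 of these 5 markers that was lower. The other 4, CD44, CAV1, AXL and ANXA1, were at least 2-fold higher (4.56% of all genes). The median log2 fold of the 5 was 5.06. Which cells gave the RNA of these 4 in that coculture, which also held fibroblasts, was not tested. Libraries held 15520243 to 15865690 estimated counts, so 3 counts, the floor for a gene at 0, corresponded to 0.188 to 0.193 CPM.

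As a set, the 39 genes stood higher with fibroblasts than without in PC-3, and lower with fibroblasts than without in LNCaP. Their summed level was 1530 CPM in the PC-3 monoculture and 1870 in its coculture, a ratio of 1.22 (95% interval 1.20 to 1.24). In LNCaP it was 2257 CPM in monoculture and 1741 in coculture, a ratio of 0.771 (0.759 to 0.784). The LNCaP monoculture thus stood highest of the 4 libraries and the PC-3 monoculture lowest, with both cocultures in between. Fibroblast markers were higher in both cocultures, and fewer cells of a type and less RNA per cell cannot be told apart in bulk tissue. The 5 LNCaP markers summed to 7021 CPM in the LNCaP monoculture and 8413 in its coculture, a ratio of 1.20, to which KLK3 added the most counts. Their median log2 fold there was 0.06, with 2 of 5 below 0. What part the fibroblast RNA had in either difference was not tested.

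**Figure D1:**
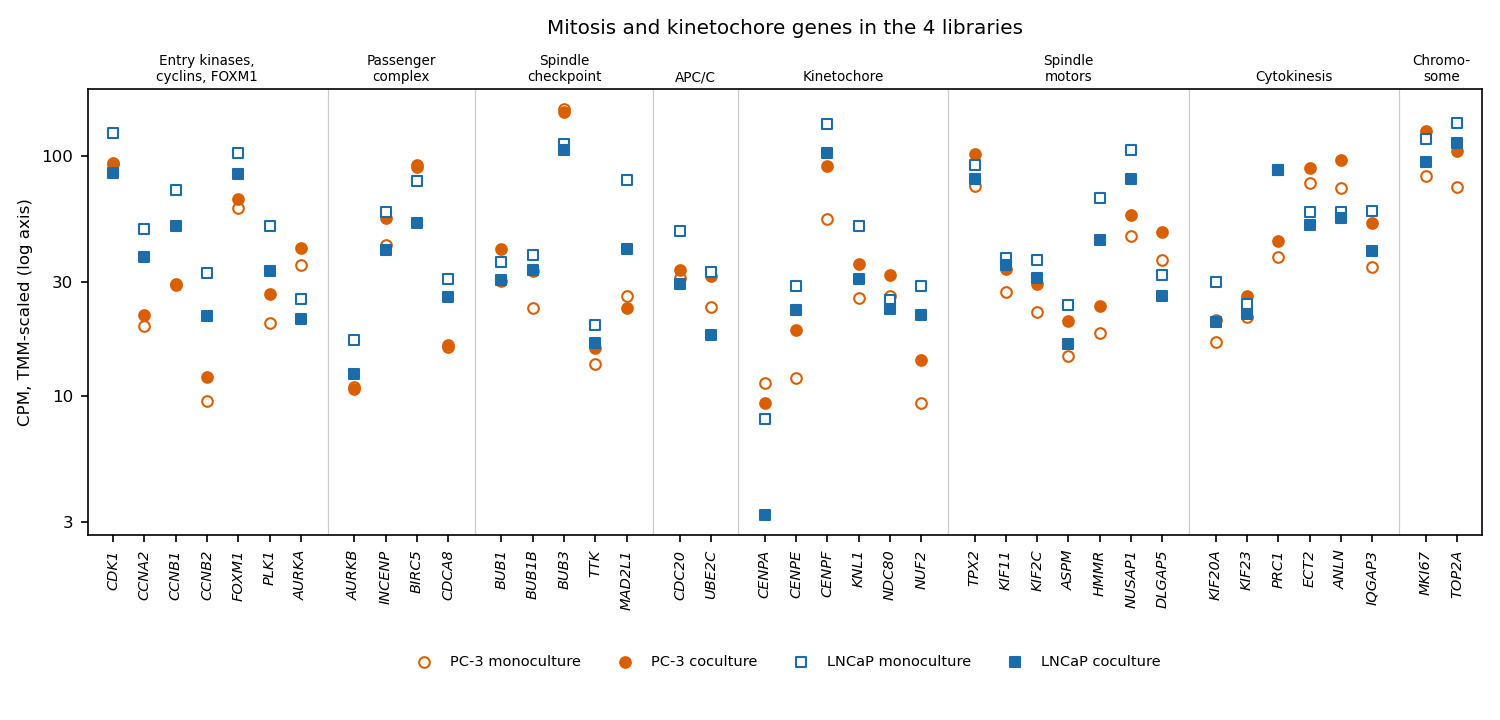
Level of each of the 39 genes (CPM, log axis) in the 4 libraries, 1 point per gene and library, with PC-3 as circles, LNCaP as squares and cocultures filled, grouped by role. The LNCaP monoculture is the highest library for 26 genes (27.8% of all genes) and the PC-3 monoculture the lowest for 24 (25.9%).

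In PC-3, 34 of the 39 genes had a log2 fold above 0 in coculture against monoculture, where 50.8% of all genes measured did. The other 5 (49.2% of all genes) were CCNB1, AURKB, BUB3, MAD2L1 and CENPA, and the counting intervals of these 5 all reached 1. With 2 counts added before taking logs, 18 were at least 25% higher (11.8% of all genes) and 0 were at least 20% lower (12.3%), the same fold in the other direction. None, 0 of 39, was at least 2-fold higher (2.22%) or 2-fold lower (1.01%). The median log2 fold of the members was 0.32, with a range from -0.27 to 0.74, and that of all genes 0.00. In LNCaP, 38 of 39 were below 0 in coculture, where 49.9% of all genes were, and 1, PRC1, was above 0 (50.1%). There, 21 were at least 20% lower (19.3% of all genes) and 0 at least 25% higher (16.8%). At least 2-fold lower was 1, CENPA (3.03%), and 0 were at least 2-fold higher (4.56%). The LNCaP median was -0.39, from -1.29 to 0.00, beside 0.00 for all genes. Apart from CENPA, no member differed 2-fold in either coculture comparison.

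The opposite direction also held for most members taken singly. Log2 folds were above 0 with fibroblasts in PC-3 and below 0 in LNCaP for 33 of 39 genes, against 21.6% of all genes measured in both lines. At least 25% higher in PC-3 and at least 20% lower in LNCaP were 10 genes (2.4% of all genes): PLK1, INCENP, UBE2C, CENPE, CENPF, KNL1, NUF2, ASPM, HMMR and IQGAP3. Counting intervals lay above 1 in PC-3 and below 1 in LNCaP for 22 genes, against 4.47% of all genes. The LNCaP log2 fold minus the PC-3 log2 fold was below 0 for all 39 members, as it was for 48.0% of all genes, and above 0 for 0 (52.0%). The LNCaP fold was at least 20% under the PC-3 fold for 36 (22.4%) and 2-fold or more under it for 7 (5.92%): PLK1, UBE2C, CENPA, CENPF, KNL1, ASPM and IQGAP3. It was 2-fold or more above the PC-3 fold for 0 (6.6%). Its median was -0.68, from -1.29 for UBE2C to -0.04 for BUB3, and its counting interval lay below 0 for 37 members, all but CDCA8 and BUB3, against 17.4% of all genes. Although the direction was shared, the sizes were not matched across genes: the PC-3 and LNCaP coculture log2 folds had a Pearson r of 0.30 and a Spearman rho of 0.07 over the 39 genes, which share the 4 libraries.

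**Figure D2:**
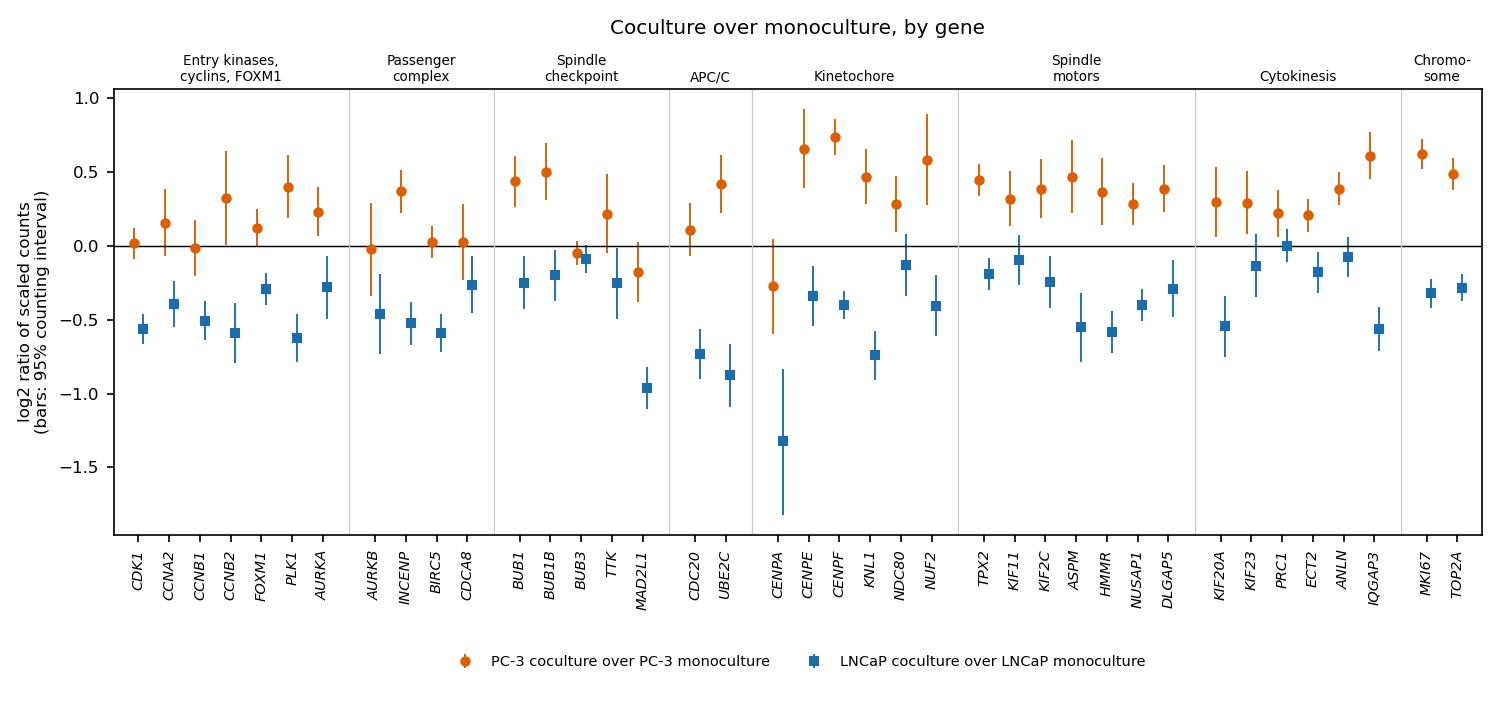
Log2 ratio of scaled counts, coculture over monoculture, for each of the 39 genes in PC-3 (circles) and LNCaP (squares), grouped by role; bars are 95% counting intervals. In PC-3 34 genes lie above 0, and in LNCaP 38 lie below 0.

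Among the kinases and cyclins that start mitosis, grouped with the transcription factor FOXM1, the LNCaP difference was the larger of the pair. Over the 7 genes, the median log2 fold was 0.16 in PC-3 and -0.50 in LNCaP. CDK1, the kinase that drives entry into mitosis, was at 92.2 CPM in the PC-3 monoculture, 93.4 in the PC-3 coculture, 125 in the LNCaP monoculture and 84.5 in the LNCaP coculture. Its PC-3 libraries were nearly level, at a ratio of 1.01 (0.941 to 1.09), while in LNCaP the ratio was 0.676 (0.630 to 0.725). CCNB1, the main mitotic cyclin, did likewise, at 29.2 and 29.0 CPM in the PC-3 pair and 72.4 and 51.0 in the LNCaP pair. CCNB2, its close relative, was at 9.58, 12.0, 32.5 and 21.6 CPM in the same order, lowest in PC-3 alone and highest in LNCaP alone.

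PLK1, the polo-like kinase that acts in centrosome maturation and kinetochore attachment, was at least 25% higher with fibroblasts in PC-3 and at least 20% lower with them in LNCaP. CCNB2 passed the same limits only without the 2 added counts. PLK1 was at 20.2 CPM in the PC-3 monoculture and 26.7 in its coculture, a ratio of 1.32 (1.14 to 1.53). In the LNCaP pair PLK1 was at 50.9 and 33.1, a ratio of 0.650 (0.581 to 0.727). FOXM1, the transcription factor that activates late cell cycle genes, differed less, at 61.0 and 66.2 CPM in PC-3 and 103 and 83.9 in LNCaP. AURKA, the spindle pole kinase, was higher in PC-3 than in LNCaP, at 35.2 and 41.4 CPM against 25.5 and 21.0. CCNA2, cyclin A2 of S phase and early mitosis, was at 19.5, 21.8, 49.8 and 37.9 CPM in PC-3 alone, PC-3 coculture, LNCaP alone and LNCaP coculture.

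The 4 subunits of the chromosomal passenger complex, which corrects faulty kinetochore attachments, were together little different in PC-3 (median log2 fold 0.03) and lower in the LNCaP coculture (-0.49). INCENP, the scaffold, was the exception in PC-3, at 42.8 CPM in monoculture and 55.3 in coculture, with 58.5 and 40.7 in LNCaP. BIRC5, or survivin, was at 90.3 and 92.0 CPM in the PC-3 pair and 78.8 and 52.4 in the LNCaP pair, a LNCaP ratio of 0.665 (0.608 to 0.727). AURKB, the kinase of the complex, had ratios of 0.984 (0.792 to 1.22) in PC-3 and 0.728 (0.602 to 0.879) in LNCaP. CDCA8, or borealin, had ratios of 1.02 and 0.834. In this 1 pair of PC-3 libraries the subunits of 1 complex thus had unlike ratios. With a trend on transcript length subtracted, as described below, all 4 had PC-3 log2 folds above 0 (54.4% of all genes), from 0.04 to 0.36.

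Spindle checkpoint genes split. BUB1, a kinetochore kinase, was at 30.1 CPM in PC-3 alone and 40.8 in its coculture, and at 36.2 and 30.5 in LNCaP. BUB1B, which encodes BUBR1 of the mitotic checkpoint complex, was at 23.4 and 33.1 CPM in PC-3, a ratio of 1.42 (1.24 to 1.62), and at 38.6 and 33.7 in LNCaP. TTK, the kinase MPS1 that starts checkpoint signalling, had ratios of 1.16 (0.966 to 1.40) and 0.839 (0.709 to 0.993). These 3 genes were above 1 in PC-3 and below 1 in LNCaP (21.6% of all genes), though the PC-3 interval of TTK reached 1.

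BUB3, the partner protein of both BUB1 and BUBR1, was at 157, 152, 112 and 106 CPM in PC-3 alone, PC-3 coculture, LNCaP alone and LNCaP coculture. Its ratios of 0.969 (0.916 to 1.03) and 0.941 (0.879 to 1.01) both reached 1, so no coculture difference was detectable at this depth. MAD2L1, which encodes the MAD2 inhibitor of CDC20 (chr4:120055623-120066848), was at 26.2, 23.2, 79.6 and 40.9 CPM in that order. It was 1.95-fold lower (1.77 to 2.15) in the LNCaP coculture than in LNCaP alone. Its PC-3 ratio was 0.885 (0.767 to 1.02), an interval that reached 1.

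CDC20 and UBE2C, which work with the anaphase promoting complex, the ubiquitin ligase that ends mitosis, had the lowest role median in LNCaP, -0.80, with 0.26 in PC-3. CDC20, the substrate-binding activator, was at 31.0 and 33.4 CPM in PC-3 and 48.8 and 29.4 in LNCaP, a LNCaP ratio of 0.602 (0.535 to 0.677). UBE2C, the ubiquitin-conjugating enzyme that works with the ligase (chr20:45812644-45816952), was at 23.6 and 31.6 CPM in PC-3 and 32.9 and 17.9 in LNCaP. It had the widest gap of the 39 between the cocultures' log2 folds, -1.29 (-1.58 to -1.01), being 1.34 times higher in PC-3 (1.17 to 1.53) and 1.84-fold lower in LNCaP (1.59 to 2.13).

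Kinetochore genes were among those with the larger PC-3 differences, with 4 of 6 at least 25% higher in PC-3 coculture (11.8% of all genes). In LNCaP coculture 5 of 6 were at least 20% lower (19.3%). The 6 genes had summed ratios of 1.44 and 0.735. CENPF, a large corona protein of the outer kinetochore (chr1:214603195-214664571), was at 54.5 and 90.9 CPM in PC-3 and 136 and 103 in LNCaP. Its PC-3 ratio of 1.67 (1.53 to 1.82) was the highest of the 39, and its LNCaP ratio was 0.757 (0.709 to 0.808). CENPE, the kinetochore motor that carries chromosomes to the spindle equator, was at 12.0, 18.9, 28.8 and 22.8 CPM in PC-3 alone, PC-3 coculture, LNCaP alone and LNCaP coculture. The scaffold KNL1, onto which the BUB proteins are recruited (chr15:40594249-40664342), was at 25.6, 35.4, 51.2 and 30.7 CPM, so both of these genes were lowest in PC-3 alone and highest in LNCaP alone.

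NUF2 and NDC80 encode partner subunits of the complex that grips the microtubule, yet their levels by line differed. NUF2 was at 9.40 and 14.1 CPM in PC-3 and 28.8 and 21.7 in LNCaP, while NDC80 was at 26.2, 31.8, 25.2 and 23.1 in that order. The LNCaP interval of NDC80 reached 1 (0.792 to 1.06). CENPA, the histone variant that marks centromeres (chr2:26786056-26794589), had a PC-3 ratio below 1, unlike the rest of its group. It was at 11.3 CPM in PC-3 alone, 9.38 in PC-3 coculture, 8.04 in LNCaP alone and 3.22 in LNCaP coculture, with 127 and 50 counts in the LNCaP pair. It was 2.50-fold lower (1.79 to 3.53) in the LNCaP coculture than in LNCaP alone. Its PC-3 ratio was 0.827 (0.661 to 1.03), an interval that reached 1.

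All 7 spindle motor and microtubule genes were above 0 in PC-3 and below 0 in LNCaP (21.6% of all genes). Their median log2 folds were 0.39 and -0.29. TPX2, the activator of AURKA on spindle microtubules, was at 75.1, 102, 91.3 and 80.1 CPM in PC-3 alone, PC-3 coculture, LNCaP alone and LNCaP coculture. ASPM, a spindle pole protein, was at 14.8, 20.5, 24.1 and 16.4 CPM in the same order. HMMR, which binds hyaluronan and the spindle, was at 18.4, 23.7, 67.1 and 44.8 CPM, the lowest again in PC-3 alone. The PC-3 ratios of the other 4, KIF11, KIF2C, NUSAP1 and DLGAP5, ran from 1.22 for NUSAP1 to 1.31, and their LNCaP ratios from 0.759 for NUSAP1 to 0.936 for KIF11. KIF11 is the motor that pushes spindle poles apart, KIF2C a microtubule depolymerase, and NUSAP1 and DLGAP5 bind and stabilise spindle microtubules.

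Cytokinesis genes differed least in LNCaP (median -0.15) while their PC-3 median was 0.29. IQGAP3, a scaffold protein of proliferating cells, was at 34.5, 52.8, 59.1 and 40.0 CPM, with ratios of 1.53 (1.37 to 1.71) in PC-3 and 0.677 (0.611 to 0.750) in LNCaP. KIF20A, a motor of the central spindle, was at 16.9, 20.7, 29.8 and 20.4 CPM. ANLN, an actin-binding protein of the cleavage furrow, was at 73.4, 96.0, 58.2 and 55.3 CPM, so that its LNCaP libraries were nearly level.

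PRC1 was the 1 gene of the 39 not below 0 in the LNCaP coculture. The protein bundles microtubules of the central spindle. It was at 38.0, 44.4, 87.1 and 87.2 CPM, with a LNCaP ratio of 1.00 (0.929 to 1.08). Its exons overlap those of AC068831.7 on the same strand over up to 1013 bases, so reads of the 2 genes may be shared. KIF23 and ECT2, the motor and the exchange factor that set the cleavage plane, had LNCaP ratios of 0.911 (0.785 to 1.06) and 0.885 (0.804 to 0.973), and PC-3 ratios of 1.23 and 1.15.

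MKI67 and TOP2A, a surfactant-like coat protein of mitotic chromosomes and the enzyme that untangles DNA, are commonly used proliferation markers. MKI67 (chr10:128096659-128126423) was at 82.4 and 127 CPM in PC-3, a ratio of 1.54 (1.44 to 1.65), and at 117 and 93.9 in LNCaP, a ratio of 0.800 (0.747 to 0.858). TOP2A was at 74.4 and 104 CPM in PC-3, a ratio of 1.40 (1.30 to 1.51), and at 137 and 113 in LNCaP, a ratio of 0.822 (0.771 to 0.876). Both genes were lowest in PC-3 alone, but MKI67 was highest in the PC-3 coculture and TOP2A in LNCaP alone.

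Between lines, most members were higher in LNCaP in monoculture, while in coculture they lay on both sides. The LNCaP monoculture was above the PC-3 monoculture for 31 of 39 genes (51.3% of all genes), by at least 25% for 28 (40.9%) and at least 2-fold for 11 (22.1%). It was below for 8 (48.7%), by at least 20% for 5 (38.7%) and 2-fold for 0 (23.6%), with a median log2 difference of 0.70 beside 0.04 for all genes. In coculture 19 of 39 were above 0 (50.2%), 10 at least 25% higher in LNCaP (39.5%) and 0 at least 2-fold higher (20.7%). There 20 were below 0 (49.8%), 14 at least 20% lower (39.7%) and 1, CENPA, at least 2-fold lower (23.6%), with a median of -0.02. The summed ratio of LNCaP to PC-3 was 1.48 (1.45 to 1.50) in monoculture and 0.931 (0.916 to 0.947) in coculture. The line difference was smaller in coculture for 27 genes (53.4% of all genes). Higher in LNCaP alone but lower in its coculture than in the PC-3 libraries were 12 (5.44%): CDK1, INCENP, BUB1, CDC20, UBE2C, KNL1, TPX2, ASPM, KIF20A, KIF23, IQGAP3 and MKI67. The order of the genes was much alike: over the 39, the line differences in monoculture and in coculture had a Pearson r of 0.89. Of the 25 genes that share no exon bases with another gene, 16 were below 0 in coculture (49.8% of all genes). The medians of these 25 were 0.51 in monoculture and -0.32 in coculture. These 2 comparisons share no library, but each library enters 1 coculture comparison as well.

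The genes that marked the line difference most were HMMR and CCNB2 in monoculture. HMMR was 3.65 times higher (3.21 to 4.17) in LNCaP alone than in PC-3 alone, and 1.89 times higher (1.67 to 2.15) in coculture. CCNB2 had ratios of 3.39 (2.82 to 4.09) and 1.80 (1.50 to 2.16). AURKA went the other way, at 0.723 (0.635 to 0.823) in monoculture and 0.507 (0.442 to 0.580) in coculture, 1 of the 8 genes that were lower in LNCaP alone than in PC-3 alone.

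**Figure D3:**
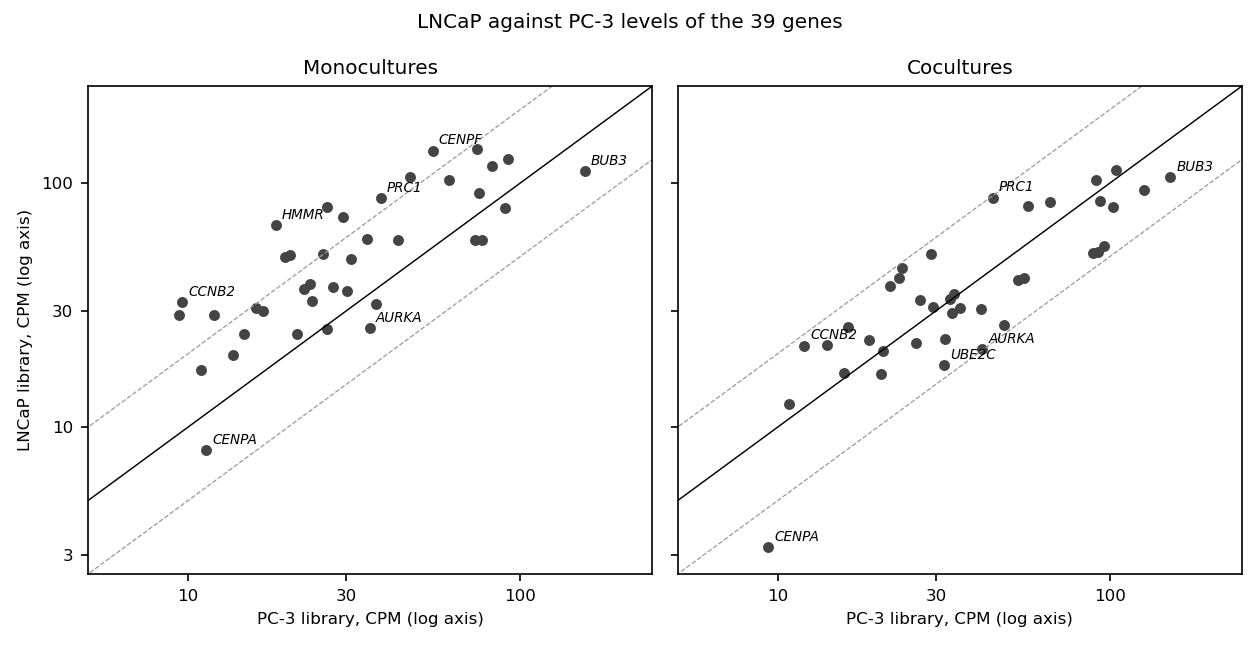
LNCaP level against PC-3 level of each of the 39 genes (CPM, both axes log), in monoculture on the left and coculture on the right; the solid line marks equal levels and dashed lines a 2-fold difference. In monoculture 31 genes lie above the line, in coculture 19.

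Per kilobase of the longest coding transcript, CDK1 was the most abundant of the 39 in all 4 libraries, at 47.3, 47.9, 64.2 and 43.4 CPM per kb in PC-3 alone, PC-3 coculture, LNCaP alone and LNCaP coculture. ASPM was the least abundant, at 1.36, 1.88, 2.21 and 1.51 CPM per kb. Both ends of the order depend on the transcript taken. With the median length of a gene's coding transcripts, BUB3 ranked 1 and CDK1 2 in all 4 libraries, since the longest BUB3 transcript has 7828 bases and the median 1361. The last rank then went to CENPE in 3 libraries and to CENPA in the LNCaP coculture, with ASPM at 38 of 39 in each.

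The coculture folds varied with transcript length. Over all genes, those with transcripts under 1500 bases had a median coculture log2 fold of -0.19 in PC-3 and -0.23 in LNCaP. Among the 39 genes, the PC-3 log2 fold and the log2 of transcript length had a Pearson r of 0.47, and the LNCaP fold 0.29, as a description over genes that share libraries. After a smooth trend on length was subtracted, the median was 0.32 in PC-3 and -0.33 in LNCaP, with 36 of 39 above 0 in PC-3 (54.4% of all genes) and 39 of 39 below 0 in LNCaP (46.0%). UBE2C, of 914 bases, then stood at 0.67 and -0.55, CENPA at -0.14 and -1.15, and CENPF, of 10307 bases, at 0.70 and -0.37. After subtraction 36 genes were above 0 in PC-3 and below 0 in LNCaP (22.0% of all genes), against 33 before it. The subtracted folds of the 39 still varied with length, at a Pearson r of 0.27 in PC-3 and 0.18 in LNCaP.

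**Figure D4:**
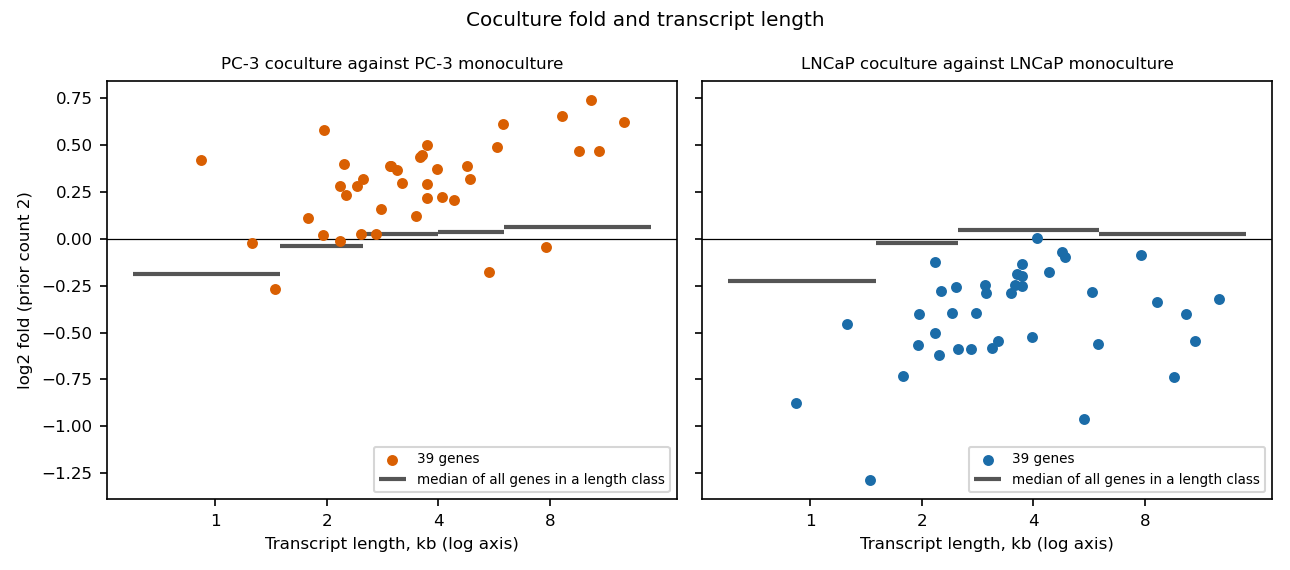
Log2 fold of coculture against monoculture plotted against transcript length (kb, log axis) for the 39 genes, 1 point each, with bars at the median of all genes in each length class, in PC-3 and in LNCaP. The bar under 1500 bases is at -0.19 in PC-3 and -0.23 in LNCaP, and all 39 LNCaP points lie below the bar of their class.

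The other genes of mitosis and of its control, 103 in lists drawn up alongside the members, had medians of the same signs and smaller size, 0.13 in PC-3 and -0.25 in LNCaP. In PC-3 71 were above 0 (50.8% of all genes), 27 at least 25% higher (11.8%) and 7 at least 20% lower (12.3%). In LNCaP 80 were below 0 (49.9% of all genes), 41 at least 20% lower (19.3%) and 2 at least 25% higher (16.8%). Genes of the spindle and of cytokinesis were nearest the members, with 10 of 19 at least 25% higher in PC-3 (11.8% of all genes). In LNCaP 14 of these 19 were at least 20% lower (19.3%). Condensin, which compacts chromosomes, had 8 of 8 above 0 in PC-3 (50.8%) and 7 of 8 below 0 in LNCaP (49.9%). Its medians were 0.27 and -0.19. Other kinetochore subunits had medians of 0.14 and -0.26 over 27 genes, and centromere loading and cohesion genes 0.28 and -0.38 over 9. Entry control genes had medians of 0.05 and -0.34 over 11, with 0 above 0 in LNCaP (50.1%).

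Reads were not marked by strand, and 14 of the 39 genes share exon bases with another annotated gene, among them CENPA with SLC35F6 and BUB1B with BUB1B-PAK6. The 25 without such an overlap had medians of 0.32 in PC-3 and -0.34 in LNCaP. Above 0 were 22 of them in PC-3 (50.8% of all genes) and 0 in LNCaP (50.1%). AURKA, BUB1, BUB3, CCNB2, CDC20, DLGAP5, MKI67 and UBE2C have named processed pseudogenes, near-copies whose reads the counting could have split, so their levels are less certain.

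The genes listed for the core of the anaphase promoting complex, with FZR1, FBXO5 and UBE2S among them, did not follow CDC20 and UBE2C. These 17 genes had medians of -0.01 in PC-3 and 0.05 in LNCaP. Replication genes followed the mitotic set at a smaller size, with medians of 0.16 and -0.21 over 16. In PC-3 the lowest pathway genes with at least 100 counts were ANAPC15 at -0.70, GINS2 at -0.60 and MIS18A at -0.56, and the highest were the motors KIF15 at 0.63 and KIF4A at 0.64, and GTSE1 at 0.72. In LNCaP the lowest were CKS2 at -1.29 and CKS1B at -1.18, which encode small partners of CDK1, and the kinetochore gene CENPW at -1.04. Their transcripts are short, and after length subtraction they stood at -0.80, -0.85 and -0.63. The highest were ANAPC4 at 0.32, CENPN at 0.34 and ANAPC15 at 0.34.

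The CHR and CCAAT elements shown above were common in the members' promoters. RefSeq windows from 250 bases before to 50 after the start were found for 31 of the 39 genes, 34 windows in all, and not for TPX2, FOXM1, KNL1, BUB3, TTK, BIRC5, UBE2C and AURKA. A CHR was in 88.2% of the windows, against 24.0% of all 35116 windows and 17.4% of those of genes at 1 CPM or more. A CCAAT box was in 76.5%, against 34.6% and 34.5%, and both in 64.7%, against 9.27% and 6.70%. The other mitotic pathway genes held a CHR in 43.1% of windows. Those among them listed for the anaphase promoting complex core, FZR1, FBXO5 and UBE2S included, held a CHR in 20.0%. E2F sites (TTTCCCGC, TTTCGCGC, TTTGCCGC or TTTGGCGC) were in 11.8% of the members' windows. They were in 3.31% of all windows, 4.68% of those of genes at 1 CPM or more and 10.8% of those of the other mitotic pathway genes. A TATA box (TATAAA) was in 3 of the members' 34 windows, or 8.82%. That lay below the 11.5% of all windows and above the 6.83% of those of genes at 1 CPM or more. All motifs were read on both strands, and a match is only a run of letters.

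The members' folds were also compared by these elements, with no test. The 21 genes with both elements in a window had median log2 folds of 0.30 in PC-3 and -0.50 in LNCaP, and the 10 without both 0.41 and -0.29. PRC1 and CENPA both carry a CHR and a CCAAT box in the stretches printed above, yet in the LNCaP coculture PRC1 was level and CENPA 2.50-fold lower. The CHR nearest the start begins at position -29 from it in CCNB2, PLK1 and MKI67, at -65 in CDC20, at -18 in CENPA and at -20 in PRC1.

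**Figure D5:**
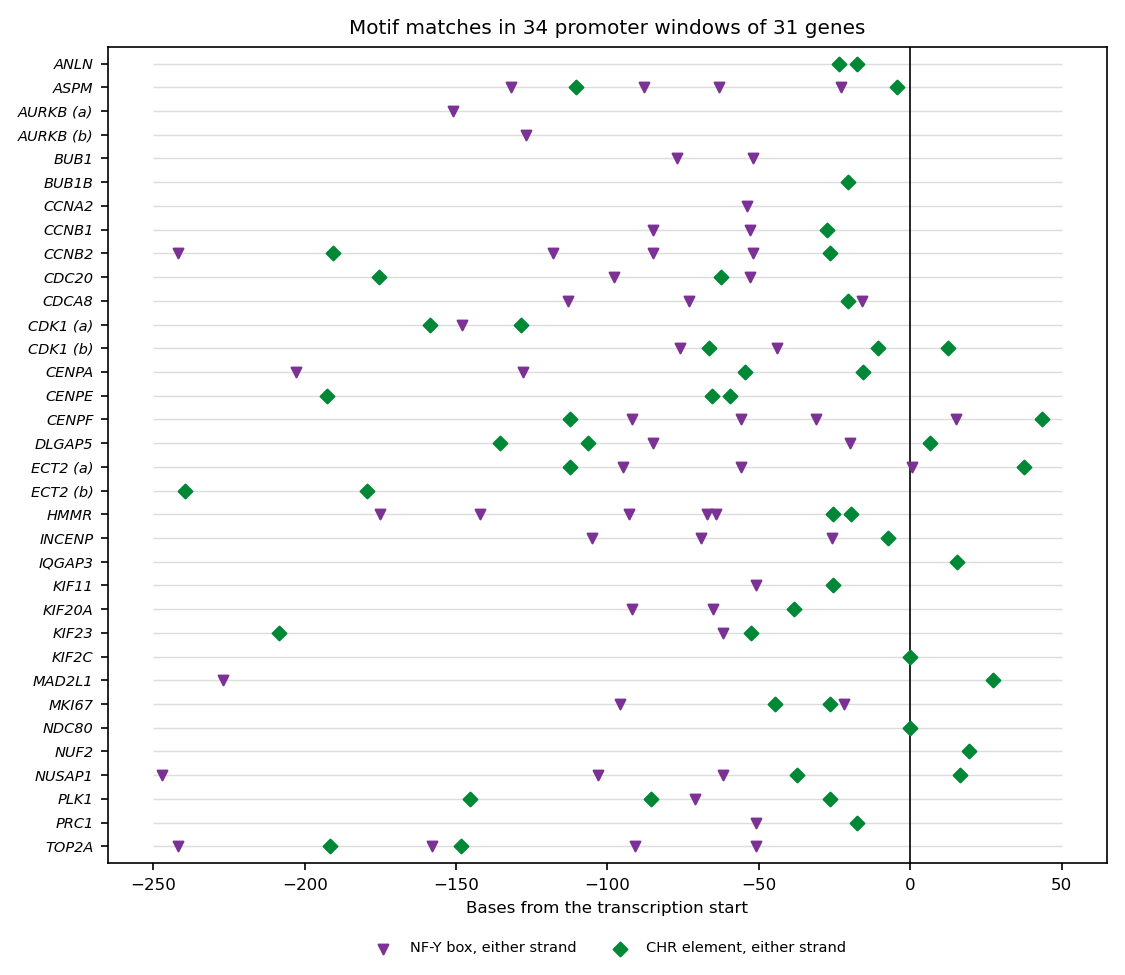
Positions of CCAAT boxes (NF-Y boxes, triangles) and CHR elements (diamonds) in bases from the transcription start, for the 34 promoter windows of 31 genes, 1 row per window. Of these, 30 of 34 hold a CHR and 26 a CCAAT box.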

How the data were processed

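RNA of 4 engineered tissues, 1 library each, was sequenced after TruSeq RNA v2 preparation, per the labels' protocols, a kit that does not mark strand. The authors deposited 1 table of estimated counts per gene (about 33.5 to 34.0% of values are not whole). The submitters' processing notes name FastQC, STAR, Partek and build hg38; versions, settings and the annotation are not given in the sources used here.

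Counts were rounded to whole numbers and scaled by TMM (edgeR 4.0.16, R 4.3.3) to CPM. Libraries held 15520243 to 15865690 counts. Log2 folds used 2 added counts. Genes at 1 CPM or more in a compared library formed the background. With 1 library per group no test was made and no p-value is given: calls are ratios of 1.25 (25% higher, 20% lower) or 2. Ratios have exact conditional binomial 95% intervals, and differences of log2 folds delta-method intervals.

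Members and lists were chosen with earlier results of these data known. All members are described; of the pathway genes, the 3 highest and 3 lowest log2 folds per coculture comparison at 100 or more counts in the higher library are named. Transcript lengths came from GENCODE release 29 and promoters from RefSeq. The scripts were tested on simulated counts. Alternatives were DESeq2 1.42.0 scaling, added counts of 0.5 and 5, a 5 CPM minimum, and length and GC trends.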

Additional observations from a re-analysis of the deposited data

Results flagged for a closer look

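The summed level of the 39 mitotic genes differed between monoculture and coculture in opposite directions in the lines: the log2 ratio was 0.29 in PC-3 and -0.37 in LNCaP, a difference of -0.66 (95% counting interval -0.70 to -0.63). It is listed because the only PC-3 pair and the only LNCaP pair of libraries went opposite ways. The difference was not tested, since each group has 1 library.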

How the results depend on the processing

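Recomputed under other settings, 232 values moved by less than the reach of the counting interval (for medians, that of a typical member) or, for counts of genes, by less than 1.5 times, and 8 moved further. With DESeq2 scaling the log2 ratio of the summed level was -0.34 for LNCaP coculture, 0.49 for LNCaP against PC-3 in monoculture, -0.13 for the same in coculture and -0.62 for the difference between the lines' coculture effects. The number of genes above 0 in LNCaP coculture was 0 with a length trend subtracted and 0 with length and GC trends subtracted. Without the genes that share exon bases with another gene, the median for LNCaP against PC-3 was 0.51 in monoculture and -0.32 in coculture. Across settings the median was 0.30 to 0.36 in PC-3 coculture and -0.40 to -0.32 in LNCaP coculture, while LNCaP against PC-3 in coculture ran from -0.32 to 0.03 and changed sign. The length and GC trends together, the median transcript length and the exon-overlap check were chosen after seeing the data. No paired analysis was possible because each group has 1 library, and no library could be left out. Without replicate libraries the spread between samples is unknown; CENPA, the lowest member, had 50 counts in the LNCaP coculture.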

Other observations

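Genes that restrain the cell cycle or regulate the mitotic promoters had median coculture log2 folds nearer to 0 than the 39 genes. The 12 genes of the DREAM and MuvB complexes, B-MYB included, had a median log2 fold of -0.03 for PC-3 with fibroblasts against PC-3 alone. For the LNCaP pair it was also -0.03. In PC-3 1 of the 12 was at least 25% higher (11.8% of all genes) and 1 at least 20% lower (12.3%). In LNCaP 0 of the 12 were at least 25% higher (16.8%) and 0 at least 20% lower (19.3%). The summed level of the 12 genes was 1.48 times higher in LNCaP than in PC-3 in monoculture and 1.47 times in coculture. Gene by gene, the median log2 difference between the lines was only 0.04 in monoculture and 0.15 in coculture. In each, 7 of the 12 were above 0 (51.3% and 50.2% of all genes) and 5 below. MYBL2, which encodes B-MYB and is named here after its values were seen, was at 84.8 CPM in PC-3 alone, 98.5 in its coculture, 69.7 in LNCaP alone and 56.5 in its coculture. Over 10 cell cycle inhibitors the medians were -0.23 and -0.10, with 3 of 10 at least 20% lower in PC-3 (12.3% of all genes) and 3 in LNCaP (19.3%). In LNCaP 1 was at least 25% higher (16.8%), CDKN2B, named after its values were seen, with 27 and 51 counts, and in PC-3 0 were (11.8%). Between the lines in monoculture their log2 differences ran from -6.58 to 3.38. CDKN1A, the p21 inhibitor, also named after its values were seen, was at 35.5, 39.6, 285 and 329 CPM in PC-3 alone, PC-3 coculture, LNCaP alone and LNCaP coculture.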
